A study of Homo sapiens with 16 samples.

Results

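In BE2C cells, 840 autosomal regions were called for the repressive histone mark H3K27me3 in both libraries of cells given GSK-J4 and in neither library of cells given DMSO. They were 5.85% of the 14360 autosomal regions obtained when the 4 H3K27me3 island lists of the compound experiment were merged, with islands joined where they shared at least 1 bp. An island is a broad stretch of enriched windows that the authors called in a single library. BE2C is an established line grown from human neuroblastoma, with MYCN amplification. The H3K27me3 calls themselves chose the regions, so their H3K27me3 values with DMSO and GSK-J4 are given as a description, without a test. The opposite pattern, called in both DMSO and neither GSK-J4 library, held 37 regions.

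The study profiled H3K27me3 and H3K4me1 by CUT&Tag, in which an antibody to the mark guides a transposase that cuts and tags nearby DNA. Cells were given 2.5 µM GSK-J4 or 0.1% DMSO for 72 h, or 1 siRNA against KDM6B (siKDM6B33) or a control siRNA (siCtrl) for 72 h. Each mark and treatment had 2 replicate libraries, 16 in all. All groups used the same cell line, and the labels give no genotype, batch or date that separates them.

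H3K27me3 is laid down by Polycomb repressive complex 2 (PRC2) and marks silenced developmental genes, often over CpG-rich DNA. The KDM6 enzymes KDM6A and KDM6B remove it. GSK-J4 is a pro-drug, and its product inside cells, GSK-J1, inhibits them. H3K4me1 is the usual mark of enhancers and of the flanks of active promoters, and large H3K27me3 and H3K4me1 domains mostly occupy different parts of the genome.

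The regions gained with GSK-J4 fell into 2 kinds when they were read in the libraries that had not chosen them. The first, here called H3K4me1-covered, had an H3K4me1 island in all 4 libraries of the compound experiment and no H3K27me3 island in any library of the knockdown experiment, and held 586 regions (69.8%). The second, here called knockdown-called, had H3K27me3 islands in all 4 libraries of the knockdown experiment, the siCtrl ones included, and no H3K4me1 island in the compound experiment, and held 193 regions (23%). Of all merged regions 58.6% and 17.7% had these combinations of calls. The other 61 regions had mixed calls, and 12 of those carried both marks in all 4 of the respective libraries. Regions with no H3K4me1 island in the compound experiment and no H3K27me3 island in the knockdown experiment numbered 0 of the 840. Of the 14360 merged regions only 22 (0.153%) had neither. These kinds were drawn after the values were seen, so they are described and not tested.

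Windows of 150 bases at the summit of H3K27me3 differed in CpG content between the 2 kinds, in the part of the regions that had a shared summit. They were centred on narrow peak summits that the GSK-J4 libraries shared to within 150 bases. Shown are the 3 highest-ranked regions of each kind with such a summit, within the limits on printing given below. Capitals mark CpG dinucleotides, and all are the plus strand of hg19. The first 3 are H3K4me1-covered and the last 3 knockdown-called.
SULF2 intron, chr20:46382953-46383102: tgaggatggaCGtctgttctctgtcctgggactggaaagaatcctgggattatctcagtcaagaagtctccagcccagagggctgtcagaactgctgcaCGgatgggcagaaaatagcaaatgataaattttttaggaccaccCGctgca
ANKRD11 intron, chr16:89477217-89477366: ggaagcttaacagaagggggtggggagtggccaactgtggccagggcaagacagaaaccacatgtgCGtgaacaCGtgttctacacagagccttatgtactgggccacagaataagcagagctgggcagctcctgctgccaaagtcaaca
PTK7 intron, chr6:43081840-43081989: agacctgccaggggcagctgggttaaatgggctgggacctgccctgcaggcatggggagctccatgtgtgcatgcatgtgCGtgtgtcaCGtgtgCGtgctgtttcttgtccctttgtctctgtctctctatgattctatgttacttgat
NTM intron, chr11:131561597-131561746: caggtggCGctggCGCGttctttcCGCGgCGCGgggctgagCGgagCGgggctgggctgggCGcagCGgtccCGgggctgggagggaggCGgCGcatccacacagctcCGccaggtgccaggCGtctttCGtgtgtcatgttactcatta
KCNJ6 intron, chr21:39047654-39047803: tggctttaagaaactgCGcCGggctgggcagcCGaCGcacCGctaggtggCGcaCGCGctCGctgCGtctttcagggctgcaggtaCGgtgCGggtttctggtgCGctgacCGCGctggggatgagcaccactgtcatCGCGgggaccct
CARTPT, upstream of the gene, chr5:71014908-71015057: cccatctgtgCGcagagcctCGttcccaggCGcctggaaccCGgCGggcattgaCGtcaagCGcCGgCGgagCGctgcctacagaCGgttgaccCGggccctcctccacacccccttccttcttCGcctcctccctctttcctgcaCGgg

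The SULF2, ANKRD11 and PTK7 windows held 3, 2 and 3 CpGs, and the NTM, KCNJ6 and CARTPT windows held 17, 17 and 14. Across all windows of this sort the median was 3.00 CpGs in 280 H3K4me1-covered regions and 12 in 37 knockdown-called ones, with a median GC content of 54.7% and 66.7%. A shared summit was found in 338 of the 840 regions (40.2%). It was found in 47.8% of the H3K4me1-covered and only 19.2% of the knockdown-called regions, so the windows describe a part of each kind. Regions called in all 4 H3K27me3 libraries of the compound experiment showed the same order, with a median of 3.00 CpGs in 1831 windows of H3K4me1-covered regions and 11 in 349 windows of knockdown-called ones. Over their whole length, however, the 2 kinds had similar composition, at a median of 14.6 and 15.2 CpGs per kb and 49.7% and 49.3% GC. All 840 had a median of 15.2 CpGs per kb, against 18.8 in all merged regions, 23 in those called in all 4 libraries and a mean of 9.97 over the autosomes.

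The core consensus of CTCF, an architectural DNA-binding factor, was searched on both strands. It was present in 6 of the 338 windows (1.78%), against 70 of 4367 windows (1.60%) of all regions called in both GSK-J4 libraries. Over their whole length, the gained regions held 9.88 matches per Mb, all merged regions 12.4 and the autosomes 3.90. Within the printing limits, the 3 highest-ranked windows with a match are shown as the plus strand of hg19 with the match in capitals. The match near CAMK1G lies on the minus strand and the other two on the plus strand.
Nearest start TBC1D2B, chr15:78202893-78202922: tggctctggCCACTAGGGGGCagggccatg
Nearest start CAMK1G, chr1:209422187-209422216: tcctttgttGCCACCTAGTGGccattaatt
NR4A1 intron, chr12:52419602-52419631: ctcctgttaCCAGCAGAGGGCaccaccgta
All 3 lie in H3K4me1-covered regions, as did 280 of the 338 windows searched. Of those 280 windows 5 held a match (1.79%), and of the 37 knockdown-called windows 0 did. Over whole regions, 36 of the 586 H3K4me1-covered (6.14%) and 14 of the 193 knockdown-called ones (7.25%) held a match, against 8.17% of all merged regions and 13.2% of those called in all 4 libraries.

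Several facts of the libraries bear on these calls. Genome background, which rises with sequencing depth, was 0.0298 and 0.0338 tags per base in the DMSO H3K27me3 libraries and 0.0507 and 0.0371 with GSK-J4, so the treated libraries were deeper. Replicate 1 of GSK-J4 stood apart with 16676 islands of a median 3000 bp, against 7175 to 8006 islands of 6600 to 7400 bp in the other 3, and 5969 regions were called in it alone. Of the length of the H3K27me3 islands of the compound experiment, 56.5% to 72.1% lay in H3K4me1 islands of the same treatment, DMSO included, whereas 10.0% to 12.7% did in the knockdown experiment. Adrenergic neuroblastoma genes, the defining markers of the line, carried H3K4me1 islands, with a median cover of 42.1% to 92.5% over 9 genes by library, against 2.70% to 12.5% over 5 mesenchymal genes. Their median H3K27me3 cover was 0% to 36.5% and 17.5% to 34.5%. Some of the adrenergic genes carried H3K27me3 islands in the compound experiment, DMSO included, as in TH, the rate-limiting enzyme of catecholamine synthesis (94.4% to 100% of the gene in those 4 libraries), and in the transcription factor gene TBX2 (70.4% to 82.7%). In the knockdown experiment TBX2 had none, and TH had an island in 1 library (22.4%). The part of depth, of replicate 1 and of the H3K4me1 overlap in the gained calls was not tested. In particular, whether a call of the compound H3K27me3 libraries in the 586 H3K4me1-covered regions reports H3K27me3 alone was not tested.

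The number of gained regions depended on how much of each list was used. When all 4 lists were shortened to the same covered length by dropping their lowest-scoring islands, 178 regions met the rule, and 109 of the 840 (13.0%) were overlapped by one of them. With equal numbers of islands there were 183, which overlapped 166 of the 840 (19.8%), and with narrow peaks in place of islands there were 5486, which overlapped 151 (18.0%). Without DMSO replicate 2 the rule found 1448 regions and without GSK-J4 replicate 2 it found 7071. The share of each kind also moved, with knockdown-called regions making up 30.1% without GSK-J4 replicate 1, 10.8% without GSK-J4 replicate 2 and 1.64% with equal numbers of islands. Regions split between replicates, with an island in 1 DMSO and 1 GSK-J4 library, numbered 617. GSK-J4 replicate 1 was the treated library in 317 and 266 of these, and GSK-J4 replicate 2 in 19 and 15.

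The gained regions were of intermediate width, and ranked in the middle of the list of GSK-J4 replicate 1 and low in that of replicate 2. Their median width was 6.2 kb with quartiles of 4.60 and 8.40 kb, against 5.0 kb for all merged regions and 10.0 kb for those called in all 4 libraries. GSK-J4 islands covered a median of 53.4% of a region in replicate 1 and 100% in replicate 2. The best island of a region ranked at a median percentile of 48.8 by score in replicate 1 and 13.1 in replicate 2, and no region passed percentile 77.5 in the one or 63.5 in the other. H3K4me1-covered regions ranked higher in replicate 1 than knockdown-called ones, with medians of 53.6 and 30.9, and similarly in replicate 2, with 12.5 and 15.5. Narrow peaks, a separate call on the same reads, were already present in DMSO in 39.8% and 46.7% of the gained regions, against 70.5% and 63.5% with GSK-J4. Over all merged regions these shares were 50.9% and 56.6% in DMSO and 78.8% and 62.7% under GSK-J4.

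**Figure D1:**
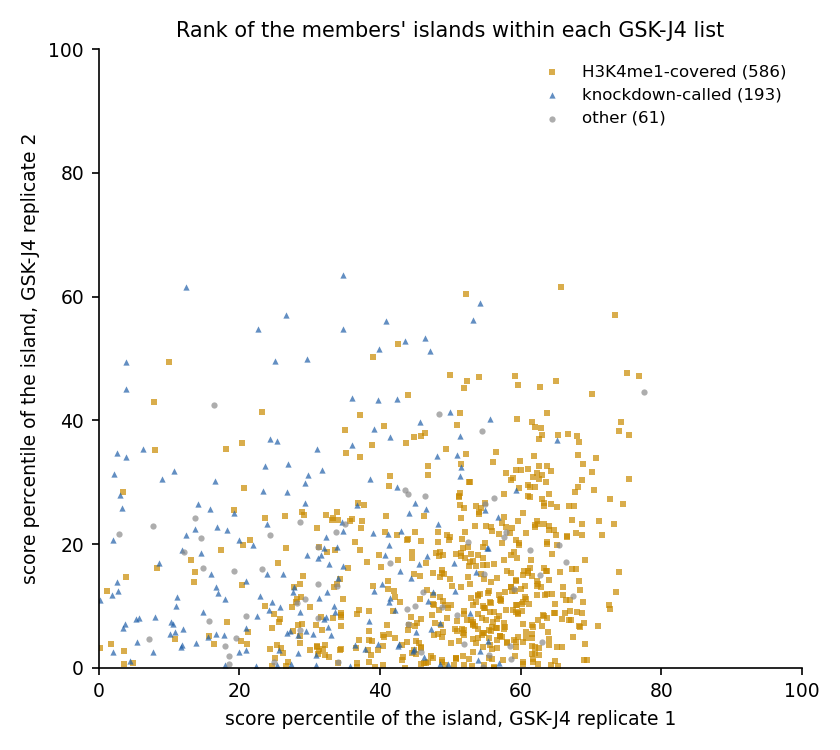
Score percentile of the highest-scoring island of each of the 840 regions in GSK-J4 replicate 1 (horizontal axis) and replicate 2 (vertical axis), where 100 is the highest score in the list, 1 point per region and colours for the kinds. No region lies above 77.5 on the horizontal or 63.5 on the vertical axis, and the H3K4me1-covered regions lie further right (median 53.6) than the knockdown-called ones (30.9).

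The values at the edge of the rule were gradual. Just inside it, the regions with the least cover in a GSK-J4 library were near TEX51 (7.81% in replicate 1, 100% in replicate 2), in FGF14 (8.82% and 100%) and near S100A12 (11.1% and 100%). Just outside it, a region on chromosome 2 had an island over 23.4% of its length in DMSO replicate 1 and none in replicate 2, with 36.2% and 95.7% cover under GSK-J4. The nearest DMSO island lay 400 bp away at the closest, the median distance was 33.4 kb, and 66 regions (7.86%) lay within 2 kb of one. Of the 840, 264 (31.4%) lay over 100 kb from any DMSO island.

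Most regions overlapped a protein-coding gene (69.8%, against 70.7% of all merged regions), and most had no transcription start nearby. The centre of 482 regions (57.4%) fell in an intron of a protein-coding gene, of 52 (6.19%) in an exon and of 306 (36.4%) outside such genes, against 52.6%, 8.94% and 38.5% of all merged regions. A protein-coding transcription start lay within 1 kb of 184 regions (21.9%), compared with 31.9% of all merged regions. The share was 48.0% of those called in all 4 libraries and 20.0% of those called only in GSK-J4 replicate 1. Among H3K4me1-covered regions it was 19.5% of the gained and 20.1% of all merged ones. Introns held 62.5% of the centres of the H3K4me1-covered regions and 40.4% of those of the knockdown-called ones, of which 50.8% lay outside protein-coding genes. All merged regions with the same calls showed a similar contrast, with 57.4% and 41.9% in introns and 48.0% of the knockdown-called ones outside such genes. Every autosome held some, from 4.07% of its merged regions on chromosome 13 to 7.45% on chromosome 1.

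Before any comparison of treatments, most gained regions carried H3K4me1. In both DMSO libraries 621 of the 840 (73.9%) had an H3K4me1 island, and 629 (74.9%) had one in both GSK-J4 libraries, close to the 73.5% and 72.7% of all merged regions. Islands were present in all 4 compound libraries in 616 regions (73.3%) and in none in 200 (23.8%), against 69.0% and 18.7% of all merged regions. The combination that defines the H3K4me1-covered kind was found in 69.8% of the gained regions, 58.6% of all merged regions, 47.1% of those called in all 4 libraries and 70.4% of those called only in GSK-J4 replicate 1. It was found in 3.03% of the 132 regions called only in GSK-J4 replicate 2, of which 75.8% were knockdown-called.

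**Figure D2:**
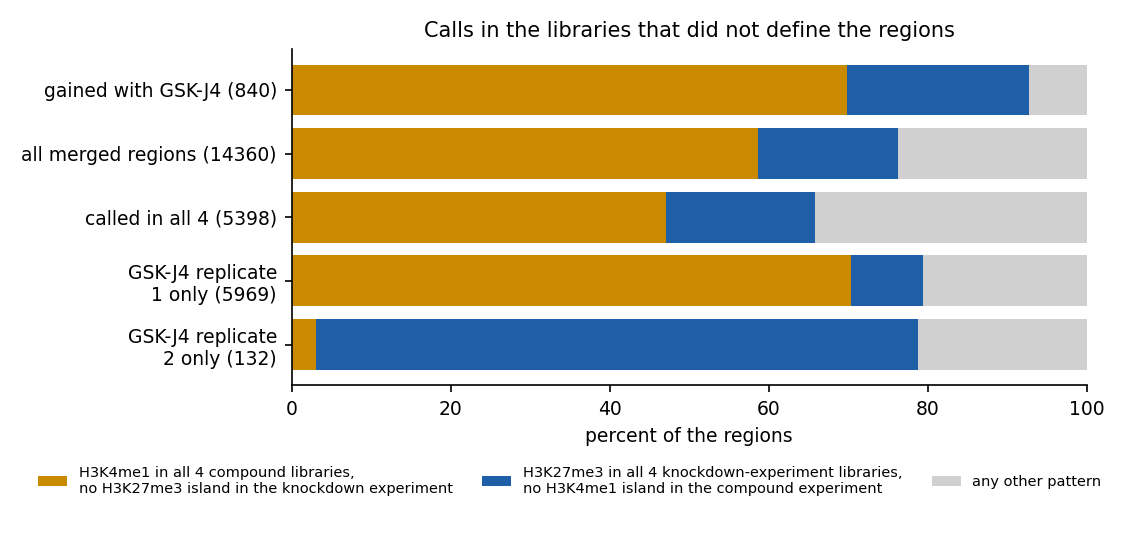
Percent of regions (horizontal axis) by their calls in the libraries that did not choose them, for the gained regions and 4 comparison sets with their numbers in parentheses. H3K4me1-covered regions (orange) made up 69.8% of the gained regions and knockdown-called regions (blue) 23%, between the mixes of the sets called in GSK-J4 replicate 1 only (70.4% and 9.01%) and replicate 2 only (3.03% and 75.8%).

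H3K4me1 over the gained regions differed between DMSO and GSK-J4 by less than the spread of the libraries. Islands covered on average 55.1% and 51.7% of a gained region in the DMSO libraries and 53.4% and 55.8% in the GSK-J4 libraries, which overlap. The means were 53.4% ± 2.40 and 54.6% ± 1.71 (SD, n = 2), a difference of 1.22 points, against -0.366 points over all merged regions. Within single regions, cover was higher in both GSK-J4 than in both DMSO libraries in 124 (14.8%, against 10.7% of all merged regions) and lower in 105 (12.5%, against 11.0%). By calls, 9 regions gained H3K4me1 with GSK-J4 (1.07%, against 1.23% of all merged regions) and 1 lost it (0.119%, against 1.27%). With 2 libraries against 2, the exact two-sided permutation test on a single region cannot give a p under 0.333, so no region could pass 0.05.

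Among the 5 first in rank of those 9 regions, SYT2 and RNF187 had H3K4me1 islands in both treatments. SYT2 encodes a synaptotagmin, a calcium sensor of synaptic vesicle release. At its start (chr1:202676001-202682400), H3K4me1 cover was 0 in both DMSO libraries and 81.2% and 71.9% with GSK-J4, and H3K27me3 cover with GSK-J4 was 50.0% and 100%. In the knockdown experiment the same region had no H3K4me1 island with siCtrl and 65.6% and 25% cover with siKDM6B33, beside H3K27me3 islands in all 4 libraries. At RNF187, a RING-finger gene (chr1:228674001-228679000), H3K4me1 cover was 0 in all 4 control libraries, 64.0% and 96.0% with GSK-J4 and 92.0% and 92.0% with siKDM6B33, and no library of the knockdown experiment had an H3K27me3 island. Both regions thus had H3K4me1 islands in every treated and in no control library. Others were SORCS2 (45.5% and 90.9% with GSK-J4) and ACKR1 beside CADM3 (35.8% and 45.3%), both at 0 with DMSO, and both at 0 in the 4 H3K4me1 libraries of the knockdown experiment. Of the 9 regions, 7 had H3K27me3 islands in all 4 libraries of that experiment, and RNF187 and ADCY5 in none. The 1 region that lost H3K4me1 calls lay at the start of GLDN (chr15:51631201-51636200), with 28% cover in each DMSO library and none with GSK-J4.

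Few of the regions were gained after knockdown of KDM6B as well. H3K27me3 islands were present in all 4 knockdown-experiment libraries in 223 regions (26.5%) and in none in 591 (70.4%), against 31.8% and 64.6% of all merged regions. Both siCtrl libraries called 227 (27%) and both siKDM6B33 libraries 233 (27.7%), against 32.4% and 33.3% of all merged regions. A call in both siKDM6B33 and neither siCtrl library was made in 4 regions (0.476%, against 0.787% of all merged regions), and the reverse in 2 (0.238%, against 0.320%).

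The 4 regions gained in both experiments were these. At ZNF648, a zinc finger gene (chr1:182025401-182031200), H3K27me3 cover was 37.9% and 100% with GSK-J4, 0 in both siCtrl libraries and 96.6% and 86.2% with siKDM6B33, and no H3K4me1 library of either experiment had an island. A region 330 kb from the start of TMEM135 (chr11:87079201-87084400) had 96.2% and 96.2% with GSK-J4 and 96.2% and 100% with siKDM6B33, and its H3K4me1 cover went from 80.8% and 46.2% with siCtrl to 26.9% and 34.6% with siKDM6B33. A region 383 kb from TAFA5 (chr22:49471801-49478600) had 23.5% and 100% with GSK-J4 and 88.2% and 100% with siKDM6B33. In GALNT18, which encodes an enzyme that starts O-glycosylation (chr11:11554001-11560600), cover was 57.6% and 100% with GSK-J4 but only 9.09% and 18.2% with siKDM6B33.

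Cover moved more than calls in the knockdown experiment. Mean H3K27me3 cover of the gained regions was 17.7% and 17.7% with siCtrl and 22.8% and 22.6% with siKDM6B33, and the groups did not overlap. The difference was 5.02 points, with group SDs of 0.0360 and 0.119, against 2.86 points over all merged regions. Cover was higher in both siKDM6B33 libraries in 119 regions (14.2%, against 11.6%) and lower in 8 (0.952%, against 3.38%). The siKDM6B33 H3K27me3 lists also covered more of the genome, 89.8 and 87.3 Mb against 53.7 and 54.2 Mb with siCtrl, and had a higher background of 0.0539 and 0.0529 against 0.0395 and 0.0401 tags per base. The part of that depth in the difference was not tested.

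The H3K4me1-covered regions had no H3K27me3 island in the knockdown experiment by definition, so the difference came from the others. In the 193 knockdown-called regions mean H3K27me3 cover was 64.9% and 66.0% with siCtrl and 84.2% and 83.4% with siKDM6B33, a difference of 18.3 points with group SDs of 0.744 and 0.535. It was higher in both siKDM6B33 libraries in 101 of them (52.3%) and lower in 3 (1.55%), whereas in all 2542 merged regions with the same calls it was higher in 38.3% and lower in 6.25%, with a mean difference of 10.3 points. Those regions had more cover with siCtrl (74.5%, against 65.5% in the gained ones) and a similar level with siKDM6B33 (84.8% and 83.8%). Cover cannot pass 100%, and the part of the siCtrl level in the smaller mean difference was not tested. The 132 regions called only in GSK-J4 replicate 2 had a larger difference of 31.3 points. Around the knockdown-called regions, 10 kb from the centre towards higher coordinates, islands were found at 33.2% and 33.7% of them with siKDM6B33 and at 17.1% and 15.0% with siCtrl.

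**Figure D3:**
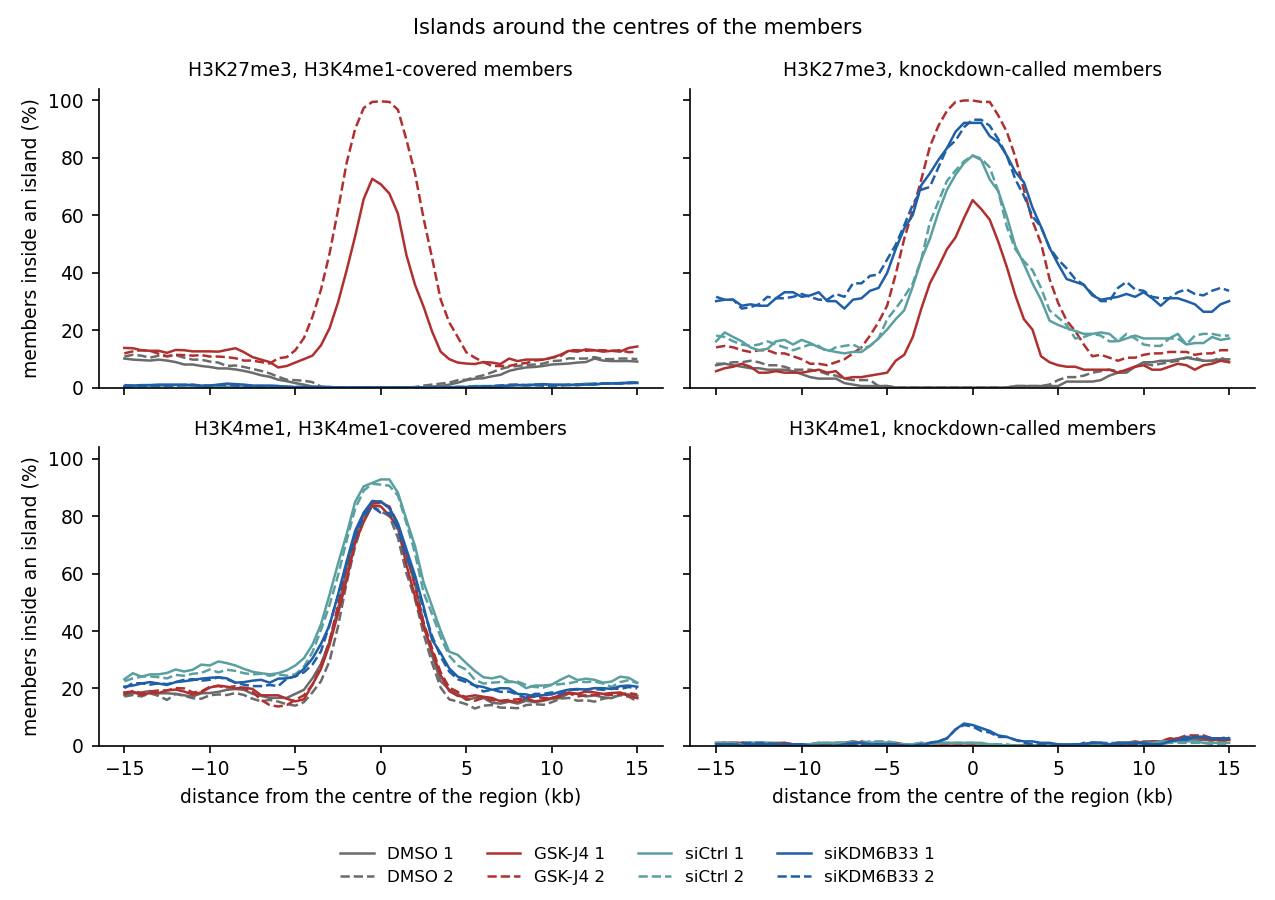
Percent of regions whose position at a given distance from the region's centre (horizontal axis, kb) lay inside an island, for H3K27me3 (top) and H3K4me1 (bottom) in the 586 H3K4me1-covered (left) and 193 knockdown-called regions (right), 1 line per library, with replicate 2 dashed. At the centre of the knockdown-called regions H3K27me3 islands were found in 80.8% and 80.8% with siCtrl and 92.2% and 93.3% with siKDM6B33, and the DMSO lines are at 0 there because of how the regions were chosen.

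Mean H3K4me1 cover was lower after knockdown. It was 62.6% and 61.4% with siCtrl and 56.7% and 55.2% with siKDM6B33, a difference of -6.04 points (group SDs 0.849 and 1.01) with no overlap between the groups, compared with -5.10 points over all merged regions and 1.5 points in regions called in all 4 H3K27me3 libraries of the compound experiment. Cover was lower in both siKDM6B33 libraries in 204 gained regions (24.3%, against 20.9% of all merged regions) and higher in 93 (11.1%, against 14.5%). By calls, 22 regions lost H3K4me1 (2.62%, against 5.27%) and 19 gained it (2.26%, against 7.60%). In the H3K4me1-covered regions the mean went from 84.6% and 83.1% to 75.2% and 73.3%, a difference of -9.62 points, against -13.6 points in all 8411 merged regions with the same calls. Cover was lower in both siKDM6B33 libraries in 185 of the 586 (31.6%) and in 30.7% of those 8411, and higher in 67 (11.4%) and in 5.77%. The siKDM6B33 H3K4me1 lists covered more of the genome, 115 and 114 Mb against 103 and 98.6 Mb with siCtrl.

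**Figure D4:**
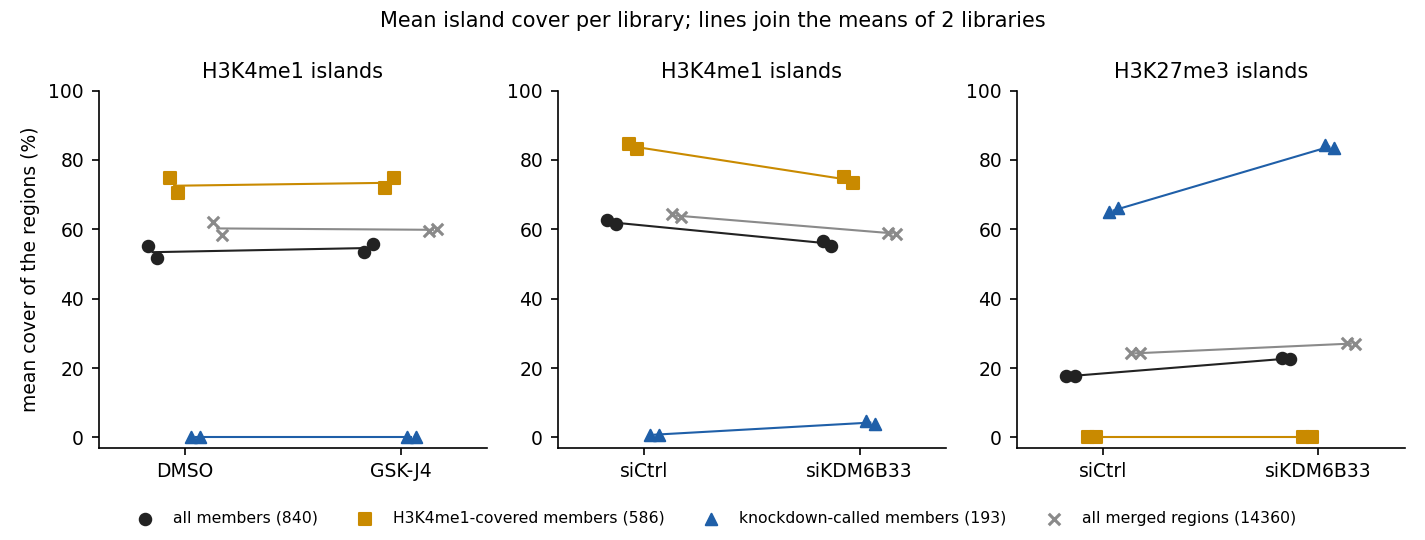
Mean island cover of the regions (vertical axis, percent of region length) in each library of 3 comparisons, with 2 points per group and a line between the group means. The H3K4me1 values of DMSO and GSK-J4 overlap for all members (55.1% and 51.7% against 53.4% and 55.8%), while the H3K27me3 values of the knockdown-called members lie at 64.9% and 66.0% with siCtrl and at 84.2% and 83.4% with siKDM6B33.

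The highest-ranked regions show both kinds. SULF2 encodes an extracellular sulfatase that edits heparan sulfate, and its intronic region (chr20:46376201-46389400), whose summit sequence is given above, had H3K27me3 cover of 37.9% and 98.5% with GSK-J4. Its H3K4me1 cover was 89.4% and 92.4% in DMSO against 80.3% and 36.4% under GSK-J4, and 100% and 93.9% with siCtrl against 62.1% and 54.5% with siKDM6B33, so the groups did not overlap in either experiment. TSC22D4, at whose start a region of 15.8 kb was called (chr7:100062601-100078400), had 51.9% and 100% H3K27me3 cover with GSK-J4 and H3K4me1 cover of 81.0% and 55.7% in DMSO against 77.2% and 88.6% under GSK-J4, which overlap. In ITPR1, the gene of an intracellular calcium release channel (chr3:4562201-4576800), H3K4me1 cover was 82.2% and 67.1% in DMSO against 47.9% and 54.8% under GSK-J4. The regions in ANKRD11, in PTK7, at RELT and nearest to TBC1D2B were also H3K4me1-covered, with GSK-J4 H3K27me3 cover of 26.9% to 100%.

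Among the 10 highest-ranked, 3 were knockdown-called. NTM encodes neurotrimin, a neural cell adhesion molecule, and its region (chr11:131554201-131566000) had H3K27me3 cover of 52.5% and 100% with GSK-J4, 94.9% and 76.3% with siCtrl and 91.5% and 100% with siKDM6B33. Its H3K4me1 cover was 0 in the 4 compound and both siCtrl libraries. The region nearest to ZNF777 (chr7:149090201-149102800) had 66.7% and 41.3% with siCtrl and 74.6% and 71.4% with siKDM6B33, and that nearest to FBLN2 (chr3:13719201-13733400) had 80.3% and 64.8% and then 90.1% and 100%. In both, the lowest siKDM6B33 value lay above the highest siCtrl value. The widest region, 25.4 kb at UBASH3A (chr21:43823001-43848400), had 40.2% and 37.8% with siCtrl and 59.8% and 67.7% with siKDM6B33, also without overlap. The other wide ones were 19.8 kb in ASTN2 (chr9:120123401-120143200), which was H3K4me1-covered with 30.3% and 100% H3K27me3 cover under GSK-J4, and 18.6 kb nearest to C16orf95 (chr16:87060801-87079400), which was knockdown-called with 55.9% and 76.3% against 88.2% and 86.0%.

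The first regions at a transcription start after TSC22D4 and RELT were those of TRAF1, PCBD1 and MYH15, all H3K4me1-covered. TRAF1 encodes an adaptor of TNF receptors, and its region (chr9:123687201-123700000) had H3K27me3 cover of 20.3% and 100% under GSK-J4 and little H3K4me1, at 15.6% and 20.3% in DMSO against 15.6% and 28.1% under GSK-J4. The PCBD1 region (chr10:72645601-72651600) had 43.3% and 100% H3K27me3 cover under GSK-J4, and H3K4me1 at 96.7% and 83.3% with siCtrl and 76.7% and 80.0% with siKDM6B33. The region of MYH15, a myosin heavy chain gene (chr3:108227601-108232000), had 63.6% and 100% H3K27me3 cover, and its H3K4me1 cover was 100% and 68.2% in DMSO against 59.1% and 63.6% under GSK-J4, with no overlap of the groups.

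**Figure D5:**
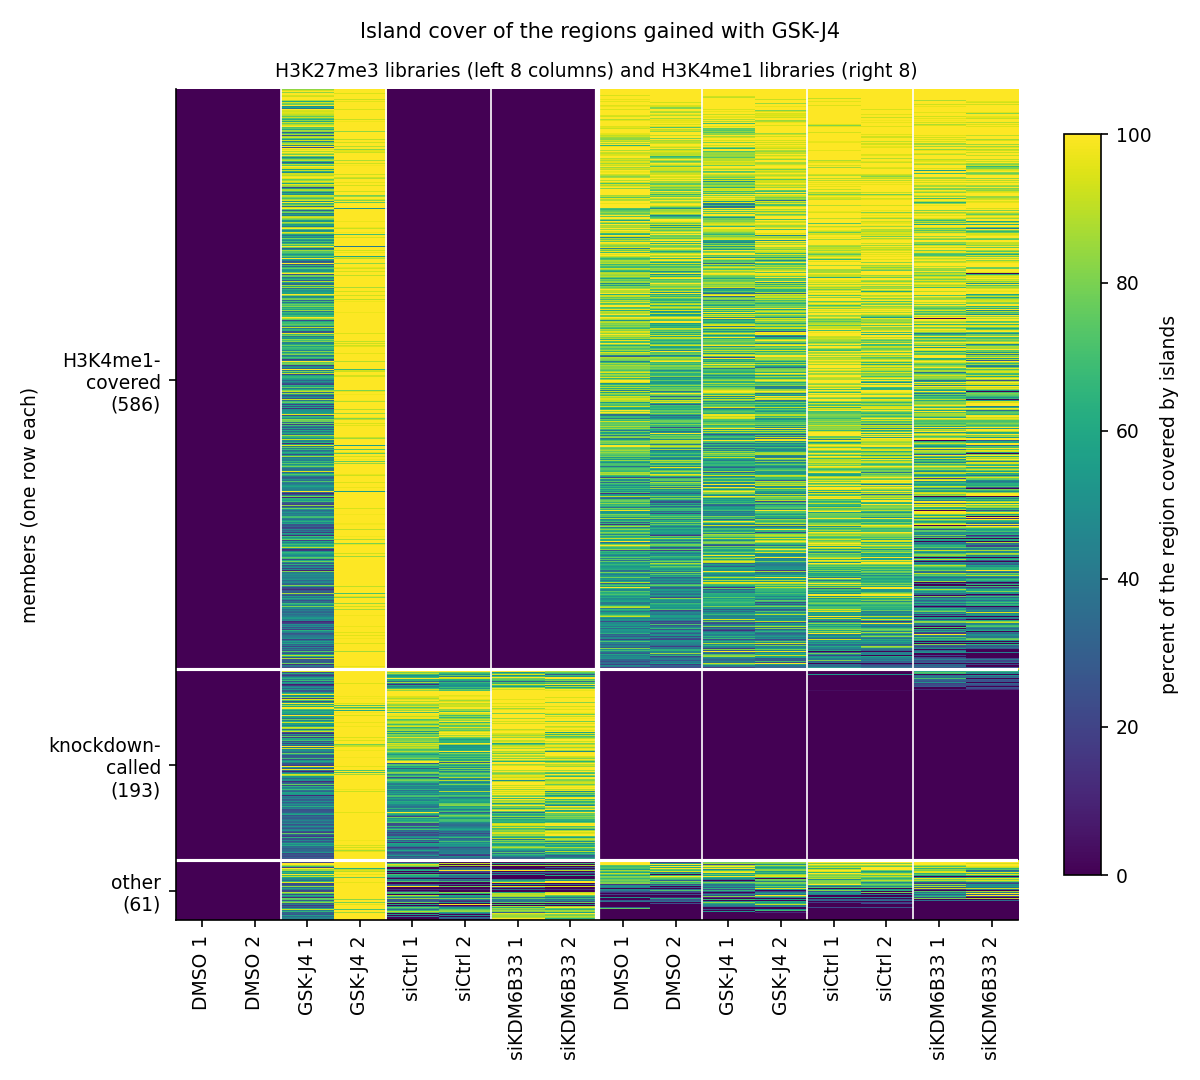
Island cover (colour, 0% to 100% of the region) of each of the 840 regions (rows, grouped by kind and sorted by mean H3K4me1 and then H3K27me3 cover) in the 16 libraries (columns). The DMSO H3K27me3 columns are at 0 and the GSK-J4 ones above 0 by the choice of the regions, while the 586 H3K4me1-covered and 193 knockdown-called blocks were set by the other columns.

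Of the genes of the AKT and PI3K pathway, which relays growth factor signals to growth and survival, 5 of 30 lay within 5 kb of a gained region, against 3.50% (672 of 19222) of all autosomal protein-coding genes. Overlap with a gene also depends on its length, and the 30 had a median length of 96.8 kb with those flanks. Near some merged region lay 53.3% of the 30. The region at the start of AKT1, the central kinase of the pathway (chr14:105254601-105261400), had H3K27me3 cover of 47.1% and 94.1% with GSK-J4 at score percentiles of 25.3 and 3.72. A DMSO island lay 0.8 kb from it. Its H3K4me1 cover was 47.1% and 82.4% in DMSO against 88.2% and 85.3% under GSK-J4. The region at the start of PIK3R1, which encodes a regulatory subunit of PI3K (chr5:67580801-67585000), had 76.2% and 100% at percentiles of 26.7 and 0.237, with H3K4me1 at 81.0% and 100% and then 76.2% and 71.4%.

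IGF1R, the receptor for insulin-like growth factor 1, and RPTOR, a subunit of mTOR complex 1, held 3 intronic regions each, all H3K4me1-covered. H3K27me3 cover with GSK-J4 was 46.4% to 90.0% in replicate 1 in the IGF1R regions and 39.4% to 87.0% in the RPTOR ones, with 100% in replicate 2 in all 6. INPP4B encodes a phosphatase that opposes the pathway, and the region at 1 of its starts (chr4:143766601-143769600) was the only knockdown-called one of the list. Its H3K27me3 cover was 80.0% and 100% with GSK-J4, 73.3% and 100% with siCtrl and 100% and 86.7% with siKDM6B33. H3K4me1 was at 0 there in the 4 compound and both siCtrl libraries and at 100% and 86.7% with siKDM6B33.

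No gene of 44 cell cycle and replication E2F targets, none of 39 HOX genes and none of 11 CTCF and cohesin genes lay near a gained region, although 27.3%, 89.7% and 9.09% of these lists lay near some merged region. With 3.50% of all genes near a gained region, lists of this size hold few or none at that share, and the median lengths with flanks were 30.2, 14.2 and 86.7 kb. Of the genes that the study singled out in its text, 3 of 14 lay near a gained region, namely AKT1, NAV2 and CYRIA. The study calls CYRIA by its other symbol, FAM49A. Near some merged region lay 57.1% of the 14. The list joins genes that the study named from accessibility and expression data (AKT1 and NAV2 among them) with genes it named from these libraries (CYRIA), so it is not independent evidence. The NAV2 region (chr11:19973001-19981000), in a gene of neuronal navigation, had 35% and 100% H3K27me3 cover with GSK-J4 and none in the knockdown experiment. Its H3K4me1 cover was 97.5% and 67.5% in DMSO against 70.0% and 100% under GSK-J4, but 87.5% and 90.0% with siCtrl against 0 and 27.5% with siKDM6B33. The CYRIA region (chr2:16844201-16848800), at the start of the gene, was knockdown-called, with 95.7% and 82.6% cover with siCtrl and 95.7% and 95.7% with siKDM6B33.

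Of 21 mesenchymal-state genes TEAD1, a partner of YAP (chr11:12909001-12916000), was the 1 near a gained region (4.76%, beside 3.50% of all genes and with a median list length of 91.3 kb), with 51.4% and 97.1% H3K27me3 cover under GSK-J4 at percentiles of 27 and 1.02.

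Of 18 genes for PRC2, KDM6 and KMT2 enzymes, JARID2 and AEBP2, both accessory subunits of PRC2, lay near gained regions. The share of all genes was 3.50%, and the list had a median length of 74.1 kb. Near some merged region lay 38.9% of the 18. JARID2 held 3 intronic, H3K4me1-covered regions, with H3K27me3 cover of 55.3% to 61.5% in GSK-J4 replicate 1 and 94.7% to 100% in replicate 2, and none in the knockdown experiment. The first of them (chr6:15398801-15406600) had H3K4me1 cover of 100% and 97.4% in DMSO against 87.2% and 87.2% under GSK-J4, without overlap. In AEBP2 (chr12:19726001-19729200), the region was covered to 100% in both GSK-J4 libraries, and its H3K4me1 cover was 100% and 100% in DMSO against 25% and 50.0% under GSK-J4. With siCtrl it carried H3K27me3 over 93.8% in replicate 1 and none in replicate 2, and none with siKDM6B33.

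Neuronal gene families lay near gained regions at these shares. Of 131 voltage-gated and leak ion channel genes 13 lay near a gained region (9.92%, median length 78.7 kb), of 44 glutamate and GABA receptor genes 6 (13.6%, 186 kb) and of 70 axon guidance genes 9 (12.9%, 86.4 kb), beside 3.50% of all genes. Of those, 1, 0 and 2 had a transcription start within 1 kb of a gained region, against 1.02% (193 of 18877) of all genes with such starts. Near some merged region lay 71.8% of the ion channel, 79.5% of the receptor and 84.3% of the axon guidance genes. KCNJ6, which encodes an inward rectifier potassium channel (chr21:39045601-39054800), was knockdown-called, with H3K27me3 cover of 26.1% and 100% with GSK-J4, 39.1% and 32.6% with siCtrl and 78.3% and 97.8% with siKDM6B33. GABBR2, a subunit of the GABA-B receptor (chr9:101377201-101390600), had 13.4% and 100% with GSK-J4, 58.2% and 95.5% with siCtrl and 94.0% and 94.0% with siKDM6B33, so its groups overlap while those of KCNJ6 do not. KCNC4 and KCNMA1, potassium channel genes, and the glutamate receptor genes GRIK3 and GRID1 held H3K4me1-covered regions, with H3K27me3 cover of 24.4% to 63.3% in GSK-J4 replicate 1 and 100% in replicate 2. In KCNC4 H3K4me1 cover was 68.3% and 80.5% with siCtrl and 31.7% and 36.6% with siKDM6B33, and in GRIK3 it was 91.7% and 63.3% and then 36.7% and 58.3%, so that neither gene's groups overlapped. CARTPT, which encodes a neuropeptide precursor and lies in none of the lists, was knockdown-called (chr5:71013401-71016800) and had H3K4me1 at 0 in both siCtrl libraries and at 58.8% and 64.7% with siKDM6B33.

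Of the 9 axon guidance genes 8 lay near an H3K4me1-covered region, as did 491 of the 672 genes near any gained region. SLIT3, a secreted repellent (chr5:168271201-168279600), had H3K27me3 cover of 76.2% and 100% with GSK-J4 and H3K4me1 cover of 100% and 90.5% in DMSO against 66.7% and 73.8% under GSK-J4, without overlap. PLXNA4, a semaphorin co-receptor (chr7:131945401-131953600), had H3K4me1 cover of 63.4% and 29.3% and then 56.1% and 31.7%, which overlap, but 100% and 63.4% with siCtrl against 17.1% and 34.1% with siKDM6B33. UNC5C, a netrin receptor, had overlapping H3K4me1 values in both experiments.

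In the remaining lists the counts were 4 of 38 WNT ligands, Frizzled receptors and secreted inhibitors, 5 of 42 collagens, 2 of 60 SOX and FOX factors, 1 of 93 cadherins and protocadherins, 1 of 76 ribosomal proteins and 4 of 496 ZNF genes (0.806%), beside 3.50% of all genes. In the same order, 78.9%, 69.0%, 81.7%, 45.2%, 32.9% and 12.7% of these lists lay near some merged region. Median lengths with flanks ran from 15.4 kb for the ribosomal proteins to 125 kb for the cadherins and 143 kb for the collagens. COL27A1, a fibrillar collagen gene (chr9:117041401-117046400), had H3K4me1 cover of 60.0% and 60.0% with siCtrl and 0 and 0 with siKDM6B33. At WNT4, a secreted signalling ligand (chr1:22462601-22472000), the region carried both marks in all 4 of their libraries, with H3K27me3 at 46.8% and 38.3% with siCtrl and 42.6% and 68.1% with siKDM6B33. WNT7B and the WNT inhibitor gene DKK3 held H3K4me1-covered regions, with H3K27me3 cover of 50.0% and 56.0% in GSK-J4 replicate 1 and 100% in replicate 2.

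The COL13A1 and COL18A1 regions, in genes of non-fibrillar collagens, were also H3K4me1-covered and had lower H3K4me1 cover with siKDM6B33, at 75% and 41.7% against 100% and 100% with siCtrl in COL13A1 and at 24.3% and 21.6% against 81.1% and 45.9% in COL18A1. The region nearest to FOXS1 had H3K27me3 islands in the 4 libraries of the knockdown experiment, at 80.8% to 88.5% cover, and the region at SOX15 had none there. The protocadherin PCDH12 and the ribosomal protein RPL36 had H3K4me1-covered regions at their starts, that of RPL36 with 96.1% and 100% H3K27me3 cover under GSK-J4. Near the ZNF genes, ZNF646 was H3K4me1-covered, with H3K4me1 at 36.1% and 63.9% in DMSO against 97.2% and 88.9% under GSK-J4.

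A few genes held several gained regions. Of the genes overlapped by one, 42 held 2, 7 held 3 and 3 held 4, and these were named after the counts were seen. MAML3, a coactivator of Notch signalling, and SHB, an adaptor of receptor tyrosine kinases, held 4 regions each, all H3K4me1-covered, and the third gene with 4 overlaps SHB. At the start of SHB (chr9:38064001-38071800) H3K4me1 cover was 23.1% and 28.2% in DMSO against 59.0% and 66.7% under GSK-J4, beside H3K27me3 at 28.2% and 100%. NR4A1, an orphan nuclear receptor induced by stimuli, held 3 within a gene of 36.7 kb. In 1 of these (chr12:52431401-52438000) H3K4me1 cover was 30.3% and 60.6% in DMSO against 72.7% and 100% under GSK-J4.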

How the data were processed

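CUT&Tag libraries of BE2C cells (16, with 2 in each of 8 groups) were grouped by the sample titles. The regions and gene lists described, and the 2 kinds of region, were chosen with earlier results of these data known. The authors aligned reads to hg19 with BWA 0.7.12, removed duplicates with Picard 1.65, kept fragments of 150 to 2000 bp, and called each library separately with SICER 1.1 (200-bp windows, 600-bp gaps) and MACS2 (2.1.1 in the submitters' processing notes, q 0.05), with E. coli reads for scaling, which was not used here. Each deposited island carries a SICER score without unit, which grows with depth and with island width. The deposited narrow peak lists give fold enrichment (a ratio) and −log10 p and q values of each peak, of which fold ranked shared summits. Reads per region were not analysed here, so no error from counting could be given.

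Versions were Python 3.11.15, matplotlib 3.10.9, SciPy 1.17.1, pandas 2.3.3 and NumPy 2.4.6. Islands of the 4 H3K27me3 libraries of the compound experiment were merged where they shared 1 bp, and regions on chromosomes 1 to 22 overlapping both GSK-J4 and no DMSO list were kept. A call is an overlap of 1 bp or more, and cover is the percent of a region inside islands. Genes and 55882 protein-coding starts came from GENCODE 44 on GRCh37, and sequences from that genome. Genome background was solved from fold and −log10 p of narrow peaks, using their 20 most frequent combinations. The study describes the libraries of a group as biological replicates, and the labels say nothing of separate cultures. The code was tested on simulated lists with planted gained regions.

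Regions were ranked by the lower of their 2 score percentiles. Those named were the 10 first, the 5 first at a start, the 5 first gained after knockdown, the 5 first each that gained or lost H3K4me1 calls with GSK-J4, the widest 3, every region near the AKT and PI3K, E2F, adrenergic, mesenchymal, PRC2, CTCF and study-named lists, and the 3 first of each other list. Windows on chromosomes 8 and 18, and those with more than a short stretch of untranslated exon, were not printed. Results for a few of these genes and lists are not reported here. Replicate numbers are shared by the groups, but nothing says that they pair libraries. Alternatives were other joining, island widths and list lengths, narrow peaks, and leaving out each library.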

Additional observations from a re-analysis of the deposited data

How the results depend on the processing

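The count of 840 gained regions was 743 with islands joined within 2 kb, 693 with islands of at least 2 kb and 848 with chromosome X, but 178 with lists of equal covered length, 183 with equal numbers of islands and 5486 with narrow peaks in place of islands, which overlapped 18.0% of the 840. Leaving out 1 H3K27me3 library gave 978 to 7071, the highest without GSK-J4 replicate 2, and 1448 when DMSO replicate 2 was left out. The share called for H3K4me1 in both DMSO libraries (73.9%) was 96.7% with equal numbers of islands, 56.0% where the centre had to lie inside an island, and 64.4% to 79.4% with 1 library left out. The share called for H3K27me3 in both siKDM6B33 libraries (27.7%) was 3.83%, 23.9% and 14.8% to 36.7% in the same order, lowest without GSK-J4 replicate 2. The share with a start within 1 kb (21.9%) was 18.6% with equal numbers of islands and 19.6% to 22.6% with 1 library left out. The GSK-J4 minus DMSO difference in mean H3K4me1 cover (1.22 points) was -0.875 with equal covered length, -0.108 with equal numbers of islands, -0.126 with narrow peaks and 0.109 to 1.23 with 1 library left out, lowest without GSK-J4 replicate 2, and 0.350 when DMSO replicate 2 was left out. With the replicate block it was 1.22, as any pairing of 2 against 2 libraries must give, so this is no check of the value. The paired differences were -1.68 and 4.13, and 0.740 and 1.71 with the numbers crossed, which was chosen after seeing the data because the deviations correlated at -0.11. The kinds were followed in settings added after seeing the data. H3K4me1-covered regions made up 69.1% with equal covered length and 93.4% with equal numbers of islands, and knockdown-called ones 25.8% and 1.64%. The cause of these shifts was not tested. Depth limits the lists, since a region just under the island threshold in DMSO cannot be told from one without the mark.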
